A study of Mus musculus with 12 samples.

Results

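The hypothalamus of trained Asmt-knockout mice was compared with that of trained wild-type littermates, with 6 of the 12 arrays of the series: KE3, KE4 and KE6 from the Asmt-knockout exercise group (KE) and WE2, WE3 and WE4 from the wild-type exercise group. All mice were male C57BL/6 animals with a labelled age of 6 to 7 weeks, which by the methods was the age at which training began. KE mice were homozygous for an Asmt allele that came from founders made with Cas9 and 1 guide RNA and that carried a 20 bp deletion; the line had been backcrossed to wild-type littermates for 3 generations. Both groups swam daily in warm water without added weight, at the same hours, over several weeks, and the hypothalamus of each mouse was hybridized to a single-color Agilent mouse array. The interval between the last swim and tissue collection is not given in the sources used here. Sedentary knockout (KO) and sedentary wild-type (WT) mice, 3 arrays each, were used below as the reference at rest.

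Asmt encodes the enzyme of the last step of melatonin synthesis, the methylation of N-acetylserotonin, and is best known from the pineal gland and retina. The paper states that the background strain has low Asmt activity from birth and is deficient in melatonin. It found no main effect of the knockout on serum melatonin. The wild-type mice are therefore not taken as a group with normal Asmt, and the part of melatonin in the differences below was not tested. The hypothalamus holds melatonin and serotonin receptors and the neurons that drive the stress axis, feeding and sleep. Neuronal activity raises immediate-early transcription factors such as Fos and Egr1, protein damage or heating raises heat shock chaperones, and glucocorticoids raise a set of genes that includes Tsc22d3, Zbtb16 and Fkbp5, so these groups are common readouts of a recent load on this tissue.

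The guide RNA is printed because it marks the edited locus, which lies on chromosome X from 170672644 to 170678054 (GRCm38.p6).
Asmt guide RNA: gcgcctacaccaactcccccc
The genotype itself could not be read from the arrays. Asmt has 1 probe, and it was not well above background on any of the 12 arrays. Its log2 signal was 1.89, 1.83 and 1.83 in the KE mice and 1.91, 2.49 and 1.87 in the wild-type exercise mice, so the genotype rests on the labels.

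The 6 arrays shared 1 slide, on which all 3 wild-type exercise arrays lay in row 1 and all 3 KE arrays in row 2, so slide row and genotype cannot be told apart. Between 63.2% and 67.9% of the spots on each of the 6 arrays were well above background. Values are the authors' quantile-normalized log2 signals, and a difference is the mean of 3 KE arrays minus the mean of 3 wild-type exercise arrays. Log2 signals across all probes correlated at 0.993 to 0.996 between pairs of these arrays. The first principal component held 29.4% of the variance over the 6 arrays and placed the KE arrays from -31.8 to -8.51 and the wild-type exercise arrays from 13.2 to 21.7. As 1 slide row held each genotype, that separation is also one of rows. A rough view of row came from the sedentary WT arrays of the other slide, 1 in row 1 and 2 in row 2. Their difference of row 2 minus row 1 correlated with KE minus wild-type exercise at r = 0.05 across 35230 probes, and the 2 differences share no array. Both had the same sign for 54 of the 81 probes listed below. With 1 mouse in row 1, row and mouse cannot be told apart there, and the part of row was not tested.

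The labels give the arrays of a group as separate samples, and p-values measure only the spread between these. The question of the comparison was which hypothalamic transcripts differ with genotype among trained mice. No probe passed correction for multiple testing. In limma, 0 of 35230 probes had a Benjamini-Hochberg adjusted p under 0.05, the smallest adjusted p being 0.338, while 3939 had an unadjusted p under 0.05. Of these, 1696 were higher in KE (4.81% of probes tested) and 2243 lower (6.37%). At the screening criterion of the methods, which asks for 2-fold or more and an unadjusted p not above 0.05, 81 probes were listed (0.23%), 38 higher (0.108%) and 43 lower (0.122%). The median difference over all probes was -0.01 on the log2 scale, with 53.1% of probes below 0, and the 3 KE values lay all on 1 side of the 3 wild-type exercise values for 19.5% of probes. The balance of directions moved with the scaling. With scaling to each array's 75th percentile, 54 probes were higher and 19 lower at the criterion, and 2802 were higher and 1332 lower at an unadjusted p under 0.05. With quantile normalization repeated from the scanner output, 2087 were higher and 1907 lower at an unadjusted p under 0.05.

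Most listed probes were dim. Only 13 of the 81 were well above background on all 6 arrays, 8 of them higher and 5 lower, and 74 had a mean log2 signal under 5 in the group where they were lower. For 44 probes every array of the lower group was below the detection flag, 35 in KE and 9 in the wild-type exercise group, and 1 more, for Plcb2, was below it in both groups, so no fold is given for it. In 75 of the 81, the 3 KE values and the 3 wild-type exercise values did not overlap, a property that the criterion itself favors. The 59 probes with a symbol named 57 genes.

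**Figure D1:**
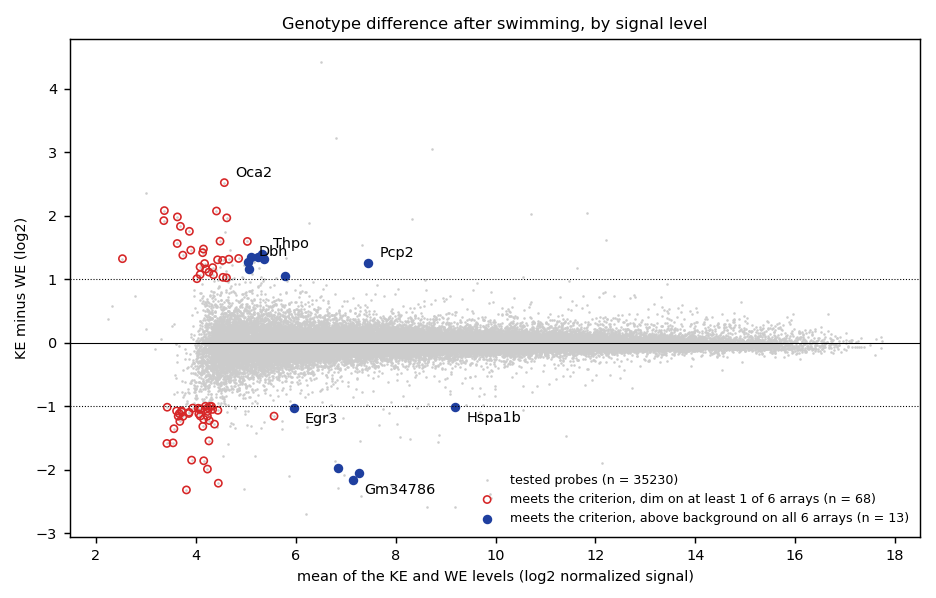
Each point is 1 of the 35230 tested probes, with the mean log2 signal over the 6 arrays on the horizontal axis and the log2 difference, KE minus wild-type exercise, on the vertical axis; filled blue points are the 13 listed probes that were above background on all 6 arrays, open red points the other 68, and dotted lines mark 2-fold. The listed probes gather at the dim end, and 74 of the 81 had a lower-group mean under 5.

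Size alone did not bring a probe onto the list. Of 164 probes that differed at least 2-fold, 83 had an unadjusted p above 0.05, and in 55 of those 83 a single array lay more than 2 log2 units from all 5 others. That array was WE2 for 27 probes, KE3 for 9, WE4 for 9, WE3 for 6, KE6 for 3 and KE4 for 1. Prl3d1, a placental prolactin-family hormone, gave the widest gap: KE3 read 17.33 while the other 5 arrays read 3.94 to 4.86. Evx2, a homeobox gene, read 12.79 on WE2 and Mxra8, a cell-surface protein, 15.82 on WE4. These are single-mouse or single-spot values, and none is a group difference.

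Among the listed probes that were above background on all 6 arrays, the largest difference was that of Gm34786, a predicted gene with no entry in the RefSeq table used here, so its position is not given. Its log2 signal was 6.25, 5.93 and 6.02 in KE3, KE4 and KE6 and 7.47, 9.37 and 7.83 in WE2, WE3 and WE4. The groups did not overlap, and WE3 stood above the rest. The difference was -2.16 (SE 0.49, adjusted p = 0.34). Sedentary mice varied widely, at 7.48, 6.51 and 6.20 in WT and 8.14, 6.63 and 5.18 in KO. KO3, the lowest, lay below every KE mouse, and KO1, on the other slide, lay above WE2 and WE4. Both other Gm34786 probes were listed too, at -1.98 and -2.06, but the probes do not measure the transcript independently. All 3 are 60 bases long and share a 29-base run, given in capitals, and the run or parts of it recur within each probe.
Gm34786 probe A_55_P2565704: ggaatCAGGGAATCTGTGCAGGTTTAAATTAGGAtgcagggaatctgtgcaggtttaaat
Gm34786 probe A_55_P2565709: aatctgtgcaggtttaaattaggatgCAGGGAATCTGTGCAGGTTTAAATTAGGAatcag
Gm34786 probe A_55_P2565734: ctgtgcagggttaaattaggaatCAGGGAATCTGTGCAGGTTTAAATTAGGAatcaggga
A probe built from such a repeated unit can take up any transcript that carries the unit, so the signal is not shown to come from Gm34786 alone.

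Beside Gm34786, Egr3 and Hspa1b were the lower transcripts with known roles that were detected on all arrays. Egr3, an activity-induced zinc finger factor (chromosome 14, 70077317 to 70082613, GRCm38.p6), read 5.50, 5.50 and 5.35 in KE and 6.02, 6.38 and 7.05 in wild-type exercise mice at its listed probe. The difference was -1.03 (SE 0.25, adjusted p = 0.341). Its brighter probe lay just outside the criterion at -0.98, with KE at 6.86, 6.93 and 7.01 and wild-type exercise at 7.34, 7.76 and 8.65. Both probes placed every KE mouse below every wild-type exercise mouse. Hspa1b, an inducible Hsp70 chaperone (chromosome 17, 34956429 to 34959238), read 9.26, 8.51 and 8.30 in KE and 10.35, 9.36 and 9.41 in wild-type exercise mice. It differed by -1.02 (SE 0.36, adjusted p = 0.411), barely past the 2-fold line, and the gap between KE3 and WE3 was small. With scaling to the 75th percentile both Egr3 (-0.94) and Hspa1b (-0.99) came under 2-fold.

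Of the higher named probes detected on all arrays, those of Dbh, Thpo and Rtkn2 owed much of their size to 1 KE mouse each. Dbh, the enzyme that makes noradrenaline from dopamine (chromosome 2, 27165507 to 27183204), read 5.03, 6.90 and 5.09 in KE and 4.36, 4.59 and 4.24 in wild-type exercise mice, a difference of 1.28 (SE 0.51, adjusted p = 0.442). KE4 set its size: without that mouse the difference was 0.67. Thpo, thrombopoietin (chromosome 16, 20724454 to 20734511), read 5.51, 5.24 and 7.33 against 4.98, 4.48 and 4.41, a difference of 1.40 (SE 0.56, adjusted p = 0.442). It was 0.75 without KE6, and its other probe also lay above 0. Rtkn2 read 5.12, 5.09 and 6.68 against 4.43, 4.26 and 4.75 at 1 probe, a difference that was 0.63 without KE6, while its 3 other probes all differed in the opposite direction. Pcp2, a Purkinje cell protein, read 8.70, 8.53 and 7.02 in KE and 6.80, 7.13 and 6.54 in wild-type exercise mice, a difference of 1.26. KE3 and KE4 lay above all 3 wild-type exercise mice, while KE6 lay below WE3.

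Where a whole group was below background only a bound can be given. Detection in 1 group was enough for a probe to be tested, so such probes can owe their place to the group where they were higher. Oca2, a melanosome transporter gene better known from pigment cells (chromosome 7, 56239593 to 56536518), was well above background in the 3 KE mice, at 5.22, 6.32 and 5.95, and in none of the wild-type exercise mice, at 3.13, 3.62 and 3.18. It was at least 3.89-fold higher in KE (adjusted p = 0.338). All its sedentary values were below the lowest detected signal of their arrays. Oca2 was therefore tested through KE alone, where it was high, and its bound and p are no independent support. The next bounds among higher genes were at least 1.97-fold for Gm33609 and 1.75-fold for Gm4850, both predicted genes, and at least 1.93-fold for Plekho2, a signaling adaptor. Among lower genes, a dim Ttr probe was at least 2.60-fold lower by its group means. The groups overlapped at that probe, with KE3 at 4.23 above WE4 at 4.09. Tusc3, an oligosaccharyltransferase subunit, was at least 2.07-fold lower, LOC105242925 at least 1.88-fold and Tmco5 at least 1.81-fold. Bcl11b, a transcription factor of striatal and cortical neurons, was at least 1.78-fold lower, Lyve1, a hyaluronan receptor of border macrophages, at least 1.52-fold, and Lag3, an inhibitory immune receptor, at least 1.21-fold. For each bound, a dark array was given the lowest signal that passed detection on it, or its own signal where that was higher. With each of the 6 arrays left out in turn, 2 of the bounds named here moved by over 1.5 times: Ttr to 4.33-fold without WE4, and LOC105242925, which read 4.68, 6.39 and 4.19 in WE2, WE3 and WE4, to 1.19-fold without WE3. At the line itself, Ino80d (1.01), Hspa1b and Sp110 lay just inside and Glra3 (0.997), Src (-0.989) and the brighter Egr3 probe just outside.

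The smallest p-values belonged to other genes, with smaller differences and tight groups. Arl5b, a small GTPase of the Golgi (chromosome 2, 15055252 to 15082456), read 4.64, 4.69 and 4.66 in KE and 5.38, 5.30 and 5.25 in wild-type exercise mice. It differed by -0.65 (SE 0.05, adjusted p = 0.338). Trib2, a pseudokinase, differed by -0.86 and Ppp1r3fos, an antisense transcript, by -0.59. On the higher side A230051N06Rik, an uncharacterized transcript, read 7.96, 7.91 and 8.04 against 7.51, 7.59 and 7.54, a difference of 0.42 (SE 0.06). None of these differed 2-fold and none passed the adjustment.

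Across the 37 gene lists examined, the glucocorticoid-responsive, immediate-early and heat shock lists held many members lower in KE and no member higher at an unadjusted p under 0.05. The trait was not particular to these lists. It also held for the meninges and fibroblast (35.3% lower), tanycyte (28.6%), choroid plexus (22.2%) and melatonin and serotonin (20.0%) lists. The lists are described by counts and medians beside the same values over all probes (6.37% lower, 4.81% higher, median -0.01). Most members of the glucocorticoid-responsive, immediate-early and heat shock lists lay below 0. Among them Hspa1b alone reached 2-fold at its brightest probe, and no adjusted p was under 0.05. In bulk tissue, fewer cells of a type and less RNA per cell cannot be told apart.

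Immediate-early genes were lower in KE for 21 of 25 members, with a median difference of -0.12, and 9 of the 25 (36.0%) had an unadjusted p under 0.05. The Egr family led, with Egr3 at -0.98, Egr1 at -0.68, Egr4 at -0.57 and Egr2 at -0.52. Egr4, a zinc finger factor of that family, had the smallest p: it read 8.75, 8.78 and 8.59 in KE and 9.48, 9.17 and 9.19 in wild-type exercise mice (SE 0.10, adjusted p = 0.338). Egr1, the family's best-known activity marker, read 10.53, 10.43 and 10.54 against 11.68, 11.11 and 10.75. Every KE mouse lay below every wild-type exercise mouse for all 4 Egr genes. Over the whole list the groups did not overlap for 7 of 25 members, beside 19.5% of all probes. Fosb, an AP-1 subunit, read 7.11, 6.80 and 6.63 against 8.05, 7.63 and 7.06, where KE3 and WE4 overlapped, and differed by -0.73 (SE 0.27, adjusted p = 0.416). Fosl2 (-0.64), Atf3 (-0.48), Klf4 (-0.27) and the phosphatase Dusp1 (-0.19) completed the 9. Fos itself was -0.56 (SE 0.29, adjusted p = 0.508), with WE2 at 10.28 far above WE4 at 9.16, which lay within the KE range of 8.88 to 9.23. Arc (-0.12) and Npas4 (0.28) did not pass, and Npas4, which depends on neuronal calcium entry, lay on the other side of 0. The count was 4 without KE6, 5 without KE3, 6 without KE4, WE2 or WE3, and 9 without WE4, and it was 3 with the methods' t-test.

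Heat shock proteins and co-chaperones were lower in KE for 19 of 22 members, with a median of -0.10, and 6 of the 22 (27.3%) had an unadjusted p under 0.05. These were Hspa1b, its near-identical neighbor Hspa1a (-0.41), the small heat shock protein Hspb1 (-0.42), and the Hsp40 co-chaperones Dnajb1 (-0.44), Dnaja1 (-0.22) and Dnajb4 (-0.11). Hspb1 read 12.56, 12.28 and 12.25 in KE and 12.99, 12.58 and 12.78 in wild-type exercise mice, and Dnajb1 read 14.44, 14.25 and 14.25 against 15.04, 14.63 and 14.58. KE3 was the highest KE mouse and WE2 the highest wild-type exercise mouse for Hspa1b, Hspa1a, Hspb1 and Dnajb1. Hspa8, the constitutive Hsp70, was 0.11, and Hspa1l, a testis-type Hsp70, was 0.93 (adjusted p = 0.521), with KE3 far above the rest at 6.54. The list's count depended on single mice more than its median did: it was 0 without KE4, 1 without KE6, 2 without WE2, 3 without WE3, 6 without KE3 and 8 without WE4, while the median stayed between -0.12 and -0.07. It was 4 with quantile normalization repeated from the scanner output and 2 with the methods' t-test. Of the 6 genes that passed, 2 had other tested probes, and 5 of these 7 probes lay below 0 too. Hspa1a and Hspa1b are near-identical, so either probe may take up transcripts of both.

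Glucocorticoid-responsive genes were lower in KE for 16 of 18 members, with a median of -0.26, and 6 of the 18 (33.3%) had an unadjusted p under 0.05. Zbtb16, a zinc finger repressor (chromosome 9, 48651797 to 48836225), read 10.64, 10.22 and 10.14 in KE and 11.49, 11.04 and 10.82 in wild-type exercise mice, a difference of -0.78 (SE 0.21, adjusted p = 0.349). Tsc22d3, the glucocorticoid-induced leucine zipper (chromosome X, 140539528 to 140600522), read 13.28, 13.27 and 13.31 against 13.60, 13.63 and 13.50, a difference of -0.29 (SE 0.05, adjusted p = 0.338). The groups did not overlap for either gene, and the 3 KE mice lay close together for Tsc22d3. Over the list they did not overlap for 6 of 18 members, beside 19.5% of all probes. Pdk4, a brake on pyruvate oxidation (-0.31), Cdkn1a, a cell cycle inhibitor (-0.61), Klf9 (-0.32) and the sulfotransferase Sult1a1 (-0.32) were the others. Sgk1, a kinase of salt handling, was -0.71 but varied among mice (adjusted p = 0.501), with WE4 at 12.39 below KE4 and KE6. Fkbp5, the co-chaperone of the receptor, was -0.15 (adjusted p = 0.469), and the receptor gene Nr3c1 was 0.01. Per1 (0.05) and Lcn2 (0.19) lay on the other side of 0. The count was 4 without WE3, 5 without KE6 or WE2, 6 without KE3 or KE4, and 9 without WE4. The median was -0.14 without WE3, so that mouse carried much of the size. With all 12 arrays in the fit the count was 3. Of the 6, 4 had another tested probe, and all 4 such probes lay below 0 too.

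**Figure D2:**
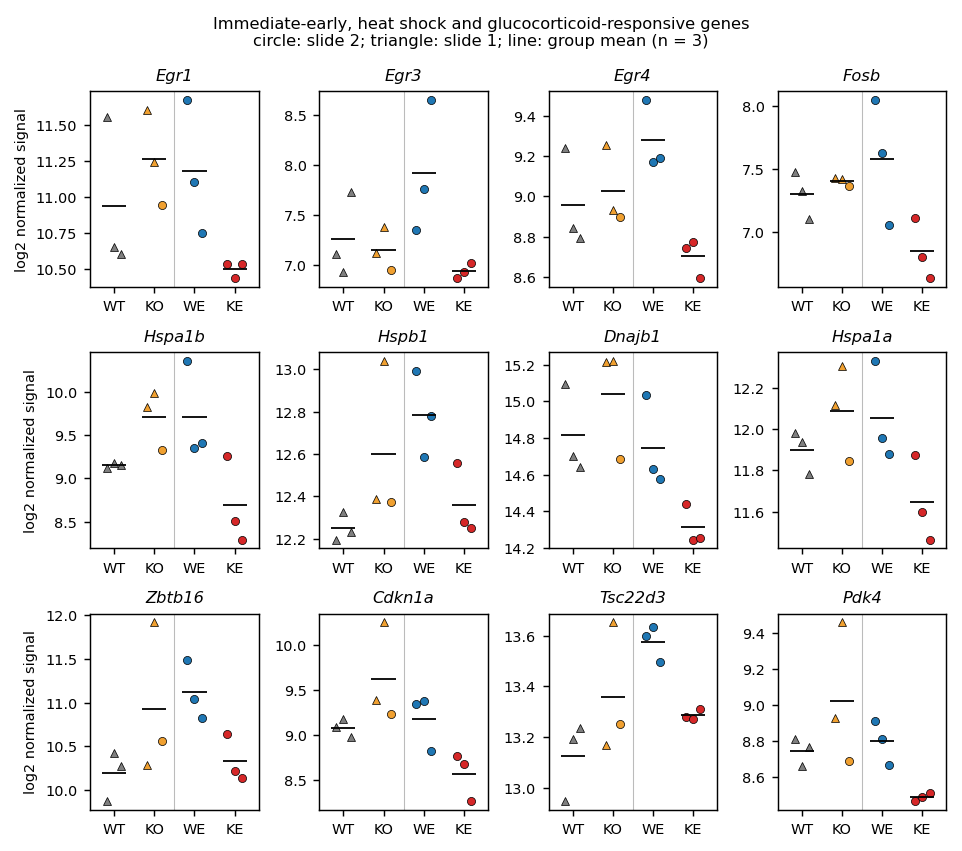
Log2 signal of 12 immediate-early, heat shock and glucocorticoid-responsive genes in each of the 12 mice, by group in the order WT, KO, wild-type exercise and KE; each point is 1 array, circles lie on the slide that holds the 6 trained mice and triangles on the other slide. For Egr4, Zbtb16 and Tsc22d3 all 3 KE points lie below all 3 wild-type exercise points, while for Fosb they overlap.

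Promoter stretches of 4 of these genes are printed to show which binding letters lie just before their starts; they were read from RefSeq promoter windows (GRCm38.p6), 200 bases up to the start, 5′ to 3′ on the gene's strand. For Hspa1b and Hspb1 the capitals mark a heat shock element pair, GAANNTTC or TTCNNGAA, and for Egr4 and Fosb a half-site of the cAMP response element, TGACG or CGTCA. GAANNTTC and TTCNNGAA each read alike on both strands, and TGACG and CGTCA are reverse complements, so both strands were searched; the full cAMP element holds both half-sites.
Hspa1b promoter, chr17:34959239-34959438, minus strand: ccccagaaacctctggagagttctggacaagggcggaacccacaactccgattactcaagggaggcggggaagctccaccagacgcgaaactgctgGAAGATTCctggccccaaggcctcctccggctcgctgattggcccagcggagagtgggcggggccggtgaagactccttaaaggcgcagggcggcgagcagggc
Hspb1 promoter, chr5:135887719-135887918, plus strand: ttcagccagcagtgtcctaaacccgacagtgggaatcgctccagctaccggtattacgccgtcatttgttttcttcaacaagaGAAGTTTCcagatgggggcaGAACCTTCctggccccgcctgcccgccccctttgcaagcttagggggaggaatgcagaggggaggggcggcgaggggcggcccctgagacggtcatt
Egr4 promoter, chr6:85513590-85513789, minus strand: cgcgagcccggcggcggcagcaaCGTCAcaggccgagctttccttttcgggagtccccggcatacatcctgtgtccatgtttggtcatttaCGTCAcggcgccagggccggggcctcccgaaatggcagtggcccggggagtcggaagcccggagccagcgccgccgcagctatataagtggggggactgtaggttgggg
Fosb promoter, chr7:19310046-19310245, minus strand: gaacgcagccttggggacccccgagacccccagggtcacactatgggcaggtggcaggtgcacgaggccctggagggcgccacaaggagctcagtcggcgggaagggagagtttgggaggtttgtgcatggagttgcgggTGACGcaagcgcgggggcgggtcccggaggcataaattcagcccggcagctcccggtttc
The heat shock pair begins at -104 in Hspa1b and at -117 and -97 in Hspb1, and the half-site at -177 and -109 in Egr4 and at -60 in Fosb. The Fosb start used lies inside the span of the gene, which reaches 19310118, and so does its marked half-site. Among all 32851 windows of 300 bases around a start 15.1% hold the heat shock pair and 20.8% the half-site. Counted in the same way, by window, 12 of the 23 windows of listed heat shock genes held the pair and 17 of the 31 windows of immediate-early genes the half-site. A gene can have several windows: by gene these were 11 of 16 and 15 of 20. The windows of Hspa1a and Hspa1b match at 296 of 300 bases. A match is a description of letters and not a bound site.

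At rest the same lists stood on the other side of 0 when the sedentary mice of slide 1 were compared, KO1 and KO2 with WT1, WT3 and WT4; KO3 lay on the other slide and was not compared. Over all probes, 789 were higher in KO at an unadjusted p under 0.05 (2.24%), 755 were lower (2.14%), and none had an adjusted p under 0.05. The change of side was not particular to these lists. Across all probes the differences at rest and after swimming correlated at r = -0.14, and 30 of the 81 listed probes kept their sign. The interferon-stimulated (0.08 at rest) and tanycyte (0.12) medians also changed sign, while the striatal (-0.07) and cortex and hippocampus (-0.05) medians did not. The glucocorticoid-responsive list had a median of 0.37 at rest, with 5 members higher and none lower at an unadjusted p under 0.05. The immediate-early median was 0.13, with 2 higher, and the heat shock median 0.11, with 5 higher. Hspa1b read 9.82 and 9.99 in KO1 and KO2 and 9.12, 9.18 and 9.16 in WT, a difference of 0.75, where after swimming it was -1.02. Zbtb16 read 10.29 and 11.91 in KO and 9.88, 10.42 and 10.28 in WT, so KO1 lay within the WT range and KO2 above it.

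KO2 carried much of the glucocorticoid result at rest. Against the WT mean, the list's median was 0.67 in KO2, with 17 of 18 members above, and 0.13 in KO1, with 15 of 18 above. KO2 also had Lcn2, an acute-phase protein, at 11.02, where no other array of the series passed 7.26. Marker lists of other tissues stood high in the same mouse: against the WT mean its median was 0.45 for meninges and fibroblasts (17 of 17 above), 0.46 for blood (10 of 10) and 0.33 for choroid plexus (15 of 18). In KO1 these medians were -0.23, -0.80 and -0.12. Their part in the glucocorticoid values at rest was not tested. The immediate-early medians were 0.19 in KO1 and 0.07 in KO2, and the heat shock medians 0.07 and 0.14. By mean level the groups overlapped for the immediate-early list. KO1 and KO2 were at 9.73 and 9.58, and WT1, WT3 and WT4 at 9.70, 9.40 and 9.40. The genotype difference after swimming minus that at rest was tested as an interaction in a fit of all 12 arrays with the slide as a term. That term took up KO3, the only sedentary array on its slide, so the difference at rest came from KO1 and KO2 against WT. Over all probes 3803 had an interaction p under 0.05 before adjustment (10.8%) and 0 after it. Among the lists these were 10 of 18 glucocorticoid-responsive, 9 of 22 heat shock and 8 of 25 immediate-early genes. Without KO2 the difference at rest came from KO1 alone, so only effect sizes are given. The median interaction of these lists, in the same order, was then -0.39, -0.14 and -0.36, where with KO2 it was -0.62, -0.18 and -0.34. Hspa1b had an interaction of -1.76 (adjusted p = 0.314), Tsc22d3 of -0.57 (adjusted p = 0.353) and Egr4 of -0.71 (adjusted p = 0.334). Of the 81 listed probes 46 met the criterion for the interaction, a count that uses the same trained mice and so adds nothing independent, and 4 were also listed at rest, 1 of them in the same direction.

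**Figure D3:**
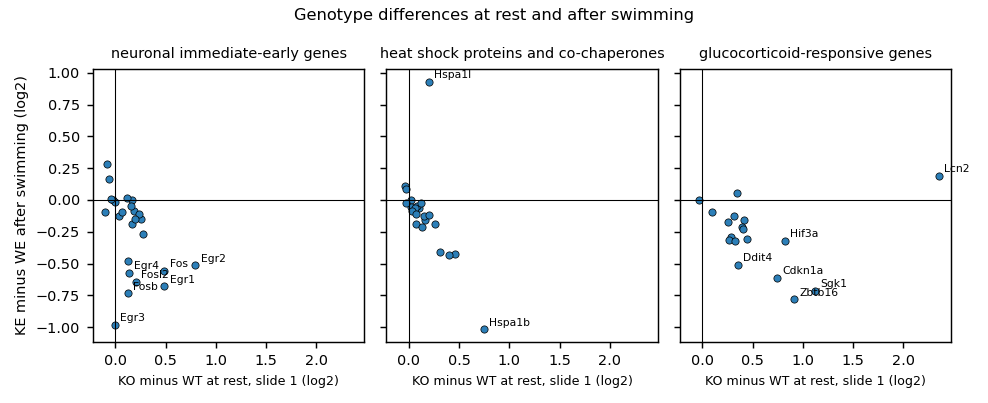
Each point is a member of the immediate-early, heat shock or glucocorticoid-responsive list, 1 list to a panel, with its log2 difference at rest (KO minus WT, slide 1) on the horizontal axis and after swimming (KE minus wild-type exercise) on the vertical axis; the lines mark 0. Most members lie to the lower right, higher in knockouts at rest and lower after swimming.

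Of the 27 melatonin and serotonin genes 20 were detected, 14 of them lower in KE, with a median of -0.11 and 4 (20.0%) at an unadjusted p under 0.05, all lower, beside 6.37% of all probes. Htr4, a serotonin receptor coupled to cAMP, read 8.18, 8.08 and 8.10 in KE and 8.45, 8.34 and 8.52 in wild-type exercise mice, a difference of -0.32 (SE 0.07, adjusted p = 0.338). Its dimmer probe was at 0.03. Gpr50, an orphan relative of the melatonin receptors that marks tanycytes, was -0.44, Htr1b -0.20 and Htr2a -0.15. The groups did not overlap for any of the 4, but KE4 and WE3 nearly met for Gpr50, at 4.46 and 4.47. Over the list they did not overlap for 5 of 20 genes, near the 19.5% of all probes. Mtnr1a, a melatonin receptor, was -0.11 (SE 0.18) and Aanat, the enzyme before Asmt in the pathway, was 0.00 (SE 0.06). With scaling to the 75th percentile the list's count was 2 and its median -0.06; without WE4 they were 1 and -0.06, and without WE2 5 and -0.18.

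The clock list was balanced, with a median of 0.00 over 24 genes. Per2, a repressor of the clock loop, was -0.19 and Hlf, an output factor, -0.17, while Npas2, a partner of Arntl, was 0.28; Arntl itself was 0.01 (SE 0.07). Neither the hypothalamic peptides nor the factors that mark hypothalamic nuclei differed as groups, and they also place the tissue: 31 of 31 peptide genes tested and 29 of 30 nucleus factors were above background on all 6 arrays. Of the 31 peptide genes 1, Tac1 (-0.14), had an unadjusted p under 0.05, and Oxt (-0.03), Hcrt (-0.10), Pomc (0.05), Agrp (0.15), Npy (0.00), Trh (-0.01) and Crh (-0.10) did not pass. Avp, vasopressin, read 14.96, 14.67 and 14.78 in KE and 14.91, 14.40 and 14.34 in wild-type exercise mice, a difference of 0.26 (SE 0.17) within the spread of the mice. Of the 30 nucleus factors none had an unadjusted p under 0.05 in either direction.

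Receptors for hormones and peptides had a median of 0.00 over 33 genes. At an unadjusted p under 0.05, 3 were higher and 3 lower (9.09%), beside 4.81% and 6.37% of all probes. Lepr, the leptin receptor (chromosome 4, 101717137 to 101815352), read 9.07, 8.92 and 8.98 in KE and 8.70, 8.62 and 8.52 in wild-type exercise mice, a difference of 0.38 (SE 0.07, adjusted p = 0.338). The estrogen receptors Esr2 (0.23) and Esr1 (0.17) were the other higher ones. Hcrtr2, an orexin receptor, was -0.24, the somatostatin receptor Sstr2 -0.28 and the vasopressin receptor Avpr1a -0.15. For Lepr, Esr2, Hcrtr2 and Sstr2 the groups did not overlap. This held for 8 of the 33 genes, near the 19.5% of all probes. The 3 dimmer Lepr probes were at -0.34, -0.44 and -0.11, opposite to the brightest probe, and Esr1's other probe lay at or near 0. At rest on slide 1 Lepr was -0.01 at its brightest probe, and its interaction was 0.38 (adjusted p = 0.324).

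Ion channels, second messengers and growth control were mixed. Of 38 potassium channel genes 6 were lower (15.8%) and 3 higher at an unadjusted p under 0.05, beside 6.37% and 4.81% of all probes. Kcnq5, an M-current subunit, read 10.59, 10.42 and 10.36 in KE against 10.05, 10.03 and 9.79, a difference of 0.50 (SE 0.10). Its 2 other probes lay at or near 0. Kcnh7, an ERG-type channel with a dim signal, was 0.68. Kcnn2, a calcium-gated channel, was -0.27. With 1 array left out the potassium channel genes counted lower ranged from 2, without KE4 or KE6, to 8, without WE2. Of 24 phospholipase C and IP3 genes 3 passed, all higher, beside 4.81% of all probes. They were Itpr3 (0.20), Plcb3 (0.19) and Itpr2 (0.13), and the 3 other Itpr2 probes lay on the other side of 0. Of 24 p53 targets 3 were higher, Mdm4 (0.30), Pidd1 (0.25) and Bbc3 (0.22), and 3 lower, Cdkn1a, Perp (-0.18) and Ccng1 (-0.17). The lower ones made 12.5% of the list, beside 6.37% of all probes. Of the 5 other Mdm4 probes 2 lay above 0, and of the 2 other Pidd1 probes 1 did. The paper lists Mdm4, Pidd1, Cdkn1a, Itpr2 and Hspa1b among array genes that its qRT-PCR did not verify. The comparison in which each was checked is not stated in the text used here. GABA and glycine transmission had none of 28 at an unadjusted p under 0.05 and glutamate transmission 1 of 33. Ribosomal proteins (median -0.05 over 48) and respiratory chain genes (median -0.04 over 39) came out at 0.02 and 0.01 with scaling to the 75th percentile, so no direction is given for either.

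**Figure D4:**
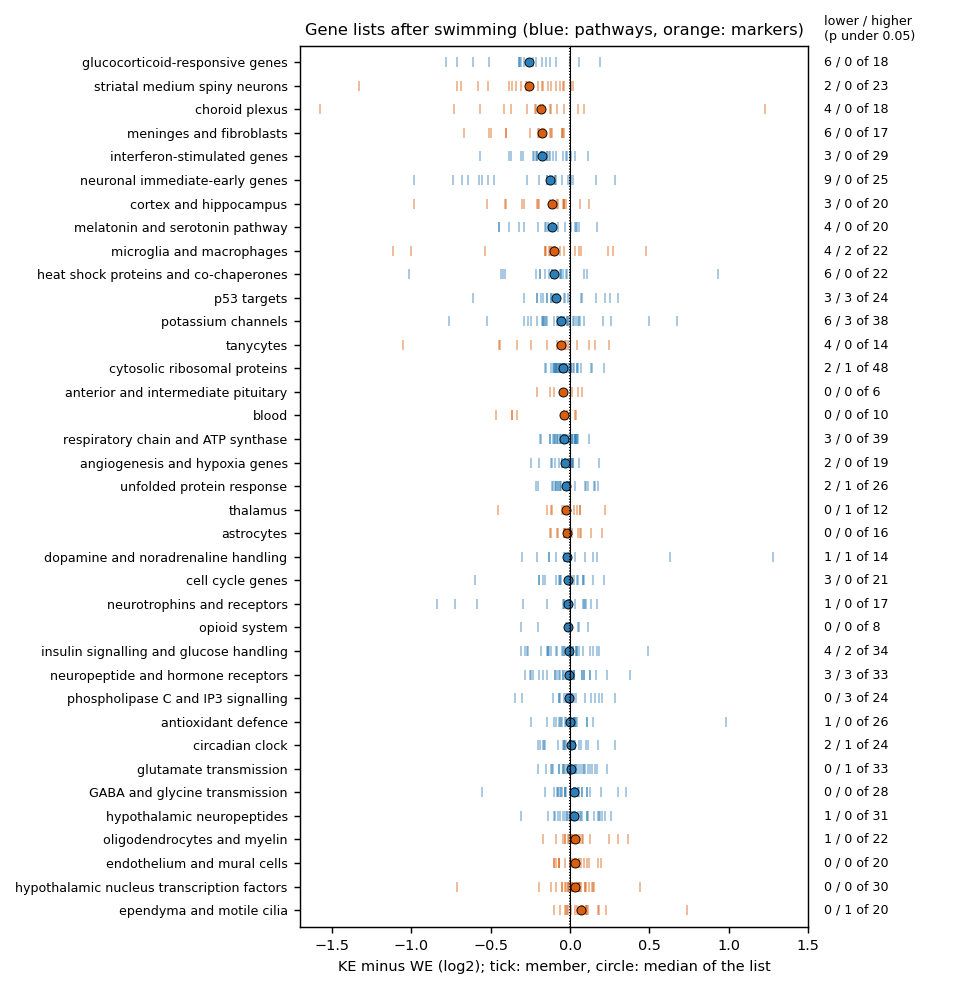
Median log2 difference, KE minus wild-type exercise, for each of the 37 gene lists; each tick is a gene, the circle is the median over the list's tested genes (blue for pathways, orange for cell type markers), and the numbers lower and higher at an unadjusted p under 0.05 stand at the right. The solid line marks 0 and the dotted line the median of all tested probes; the glucocorticoid-responsive and striatal lists lie lowest, both at -0.26, and the ependymal list highest, at 0.07.

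Among markers of tissue next to the hypothalamus, the meningeal and choroid plexus lists held more members lower in KE than the share over all probes, and the thalamus list did not. All 17 genes of the meninges and fibroblast list were lower in KE, with a median of -0.18 and 6 (35.3%) at an unadjusted p under 0.05. Slc47a1, an organic cation exporter of the leptomeninges, read 8.10, 7.59 and 8.13 in KE and 8.60, 8.67 and 8.56 in wild-type exercise mice, a difference of -0.67 (SE 0.15, adjusted p = 0.34). Ogn (-0.51), Foxc2 (-0.50), Aldh1a2 (-0.40), Slc22a6 (-0.40) and Col1a2 (-0.18) were the others. With all 12 arrays in the fit, none of the 17 passed, and the count was 3 without WE3 or WE4 and 10 without WE2. All 17 were above background on all 6 arrays, and the list's mean level was 8.51 to 8.83 in KE and 8.79 to 9.03 in wild-type exercise mice.

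Choroid plexus genes were lower for 15 of 18, with a median of -0.18 and 4 (22.2%) at an unadjusted p under 0.05: Kcnj13 (-0.57), Steap1 (-0.41), Otx2 (-0.37) and Igf2 (-0.27). The groups did not overlap for 3 of the 18 plexus genes and 6 of the 17 meningeal genes, beside 19.5% of all probes. Ttr, the plexus transport protein, read 8.31, 7.49 and 8.38 in KE and 9.82, 10.78 and 8.28 in wild-type exercise mice at its brightest probe, where WE4 lay within the KE range. The plexus count was 2 without KE4 or WE3 and 5 without KE6 or WE4, with medians of -0.25 to -0.11, and it was 1 with all 12 arrays in the fit. Striatal neuron genes were lower for 21 of 23, with a median of -0.26, but 2 (8.70%, near the 6.37% of all probes) passed, Gpr6 (-0.27) and Tac1. Single mice moved both values: the count was 1 without KE3 or KE4 and 10 without WE2, and the median was -0.08 without WE4 and -0.31 without WE2. WE4 stood high: its Drd1 signal was above the 9.10 to 9.50 of the other 5 arrays. Cortex and hippocampus genes had a median of -0.12 and 3 of 20 (15%) lower. Egr3 was again among them, with Neurod2, a cortical factor, at -0.41. The count was 1 without KE3 or with all 12 arrays in the fit. Of 12 thalamus markers none was lower and 1 was higher, Calb2 (0.22), and their median was -0.03. The part of tissue at the borders of the dissection in the immediate-early, heat shock and glucocorticoid-responsive values was not tested. The mean level of the striatal list was 10.08 to 10.13 in KE and 10.15 to 10.80 in wild-type exercise mice. That of the choroid plexus list was 8.03 to 8.36 and 8.28 to 8.63. In the sedentary WT mice the row difference had a median of -0.14 for immediate-early, 0.04 for glucocorticoid-responsive, 0.03 for heat shock and -0.17 for meningeal genes.

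Tanycytes are the ependymal glia that line the floor of the third ventricle. Of 14 markers 4 (28.6%) were lower at an unadjusted p under 0.05 and none higher, beside 6.37% and 4.81% of all probes. The median of the list was -0.06. Dio2, the deiodinase that makes active thyroid hormone, read 9.80, 9.75 and 9.55 in KE and 10.24, 10.04 and 10.15 in wild-type exercise mice, a difference of -0.44 (SE 0.09, adjusted p = 0.338). At rest Dio2 was 0.48 in KO against WT on slide 1, and its interaction was -0.93 (adjusted p = 0.194). Lhx2, a tanycyte factor, was -0.33 and Adm, adrenomedullin, -0.24, and the groups did not overlap for Dio2 or Lhx2. Over the list they did not overlap for 4 of 14 markers, beside 19.5% of all probes. The count was 1 without KE6, 2 without KE3 and 1 with the methods' t-test, and the median ranged from -0.16 to -0.05 with 1 array left out.

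Microglial and macrophage genes split. Of 22, 4 were lower (18.2%) and 2 higher at an unadjusted p under 0.05, beside 6.37% and 4.81% of all probes. Siglech, a microglial lectin, read 14.03, 14.01 and 13.82 in KE and 13.57, 13.58 and 13.28 in wild-type exercise mice, a difference of 0.48 (SE 0.10, adjusted p = 0.34), but its 2 other probes were at -0.03 and -0.09. The integrin Itgam was 0.24. Lyve1 and Ccr2, markers of border macrophages and monocytes, were lower with only bounds. Both were tested through the wild-type exercise group alone, where they were higher, so their place among the 4 is no independent support. Lag3 was -0.53 at its brightest probe and Trem2 -0.16. Interferon-stimulated genes were lower for 26 of 29, with a median of -0.18. Of these genes 3 passed (10.3%, beside 6.37% of all probes), among them the antiviral protein Rsad2 at -0.39. Their count was 11 without KE3 and 0 without KE6. Markers of astrocytes, endothelium, blood and pituitary had no member at an unadjusted p under 0.05.

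**Figure D5:**
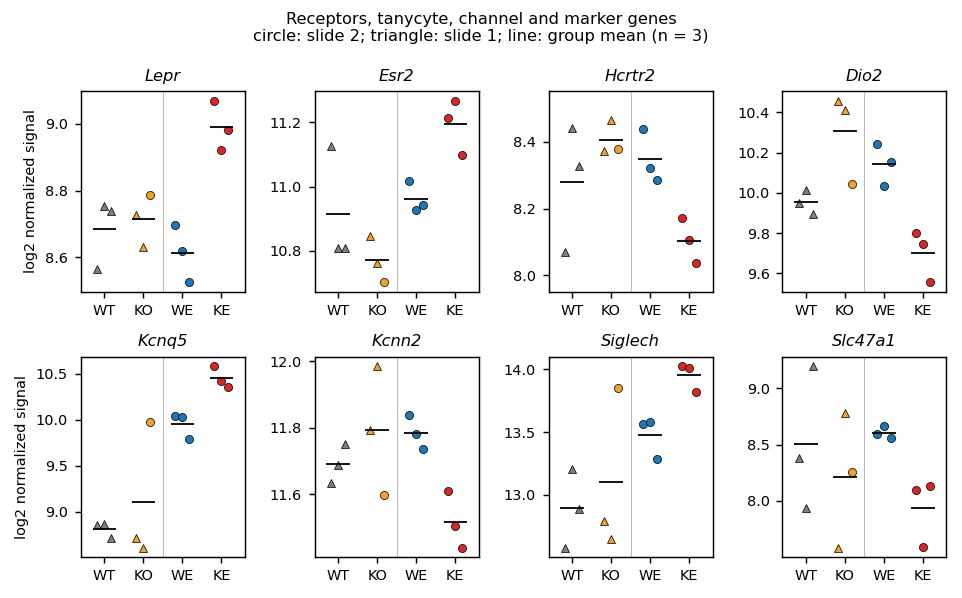
Log2 signal of 8 receptor, channel and cell marker genes in each of the 12 mice, by group in the order WT, KO, wild-type exercise and KE; each point is 1 array, circles lie on the slide of the trained mice and triangles on the other slide. Lepr, Esr2, Kcnq5 and Siglech lie higher in KE than in wild-type exercise mice and Hcrtr2, Dio2, Kcnn2 and Slc47a1 lower; Kcnq5 and Siglech also differ between slides, so levels of trained and sedentary mice are not compared across them.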

How the data were processed

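Hypothalamus RNA was labeled with Cy3 and put on single-color Agilent arrays. The authors read spot intensity with Agilent Feature Extraction 10.7.1.1, which corrects background within an array, and deposited both that scanner output and a GeneSpring table of log2 values after quantile normalization of the 12 arrays. The table was used for all main values, with the raw intensity columns and detection flags beside it. The array annotation names build mm9. The authors also deposited lists of probes past their criterion for several comparisons, with fold changes and p-values; these and their 24 columns of per-sample values were not used.

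Any of the 4 groups with detection on each of its 3 arrays was enough to keep a probe, and kept probes were tested with limma 3.58.1 in R 4.3.3, on the 6 trained mice. Depth has no counterpart here, and the number of arrays limits the precision. A gene with several probes was represented in lists by its brightest. The rule for named genes took Asmt, symbols at the criterion that were above background on all 6 arrays without overlap, the 4 largest bounds and 3 smallest p-values in each direction, and in each list the members at the criterion, those with the smallest p and the brightest; other genes were added after their values were seen. The members, lists and rule were chosen with earlier results of these data known. The bound uses normalized log2 means. The fits were tested on simulated data. RefSeq tables gave positions and promoters (GRCm38.p6). Scaling by the 75th percentile, normexp with an offset of 50, other filters, tests and covariates, and leaving out each array were the alternatives. Figures were drawn with Python 3.11.15, pandas 2.3.3 and matplotlib 3.10.9.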

Additional observations from a re-analysis of the deposited data

Results flagged for a closer look

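The mean log2 level of the glucocorticoid-responsive genes was 0.273 lower in KE than in wild-type exercise mice, a difference of -0.273, and 0.55 higher in KO than in WT mice at rest on slide 1. It is singled out because every KE array lay below every wild-type exercise array, at 11.23 to 11.26 against 11.34 to 11.67, while KO1 and KO2, at 11.43 and 12.18, lay above the 3 WT arrays, at 11.24 to 11.30. The mean level of the p53 targets showed the same arrangement at a smaller size, with -0.065 after swimming and 0.15 at rest. Cdkn1a belongs to both lists. The difference between the list means after swimming and at rest was not tested.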

How the results depend on the processing

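The count at the screening criterion, 81 in the main fit, was 6 with normexp background correction, which compresses dim signals, 614 without the detection filter, 15 for probes detected on all 6 arrays, 51 with the methods' t-test and 33 of 18266 genes with probes averaged per gene. Without the detection filter 12 probes had an adjusted p under 0.05; no other alternative for these trained mice gave any. The count at an unadjusted p under 0.05, 3939, was 2345 with all 12 arrays in the fit and 2025 with probes averaged per gene. The 46 interaction calls were 5 with normexp. Leaving out each array in turn gave 87 to 106 probes at the criterion, 2717 to 4018 at an unadjusted p under 0.05, and 36 to 45 interaction calls. Rtkn2 reversed to -0.0362 with probes averaged per gene, since its other probes differed the other way. The remaining alternatives (quantile normalization from the scanner output, 75th percentile scaling, detection in the trained groups, array weights, a slide block, a trended prior) gave 73 to 100 probes at the criterion. The replicate numbers name mice only: deviations of same-numbered arrays correlated at 0.07, -0.02 and 0.13, and with the replicate number as a block 85 probes met the criterion, 4424 had an unadjusted p under 0.05 and 0 an adjusted one. Leaving out KO2 and using the table's own detection flags (81 probes) were chosen after seeing the data. Signal near background limits most listed probes.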
